A study of Homo sapiens with 145 samples.

Results

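The genes described here are the subunits, regulators and assembly chaperones of the proteasome, chosen by symbol: PSMA, PSMB, PSMC, PSMD, PSME, PSMF or PSMG followed by a number, without pseudogenes. RefSeq lists 48 such symbols, and for 44 of them the probe annotation used here listed at least 1 probe set. A probe set was kept when its log2 value was 4 or more in at least 5 arrays, and a gene was read by its kept probe set with the highest mean. This left 43 genes of the 12070 tested. PSMA8, the testis form of an alpha subunit, was not kept. PSMB11, PSMC5, PSMD7 and PSMD13 had no probe set listed in that annotation and are not analysed here, which does not show that the array lacks them. The filter did not select for response, since all 43 genes stood at 4 or more in all 145 arrays.

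The proteasome degrades proteins that carry ubiquitin chains. Its 20S core is a barrel of alpha rings, which gate the entrance, around beta rings, which hold the proteolytic sites. The 19S cap binds the core, recognises ubiquitin, removes it and feeds the unfolded protein into the barrel by means of its ATPase ring. In cells exposed to interferon the catalytic beta subunits are replaced by PSMB8, PSMB9 and PSMB10, which form the immunoproteasome, and PSME1 with PSME2 form the PA28 activator that can bind the core in place of the cap. When the proteasome is overloaded or inhibited, the transcription factor NFE2L1 is known to raise most 20S and 19S genes together.

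The cells were HT-1080, an established human fibrosarcoma line, grown in serum-containing medium. They received etoposide (ETP, a topoisomerase II poison) at 0.003, 0.01, 0.03, 0.1, 0.3, 1 or 3 µM, methyl methanesulfonate (MMS, an alkylating agent) at 1, 3, 10, 30, 100, 300 or 500 µM, or quercetin (QUE, a plant flavonol) at 1, 3, 10, 30, 60, 80 or 100 µM for 24 h. Each chemical had its own vehicle group, exposed to DMSO alone for the same time. All 24 groups were the same line, without any labelled genotype, so they model 1 tumour line at 1 time. Whether the numbered replicates are separate cultures is not stated in the labels, and p-values then measure only the spread between these arrays, which may be technical.

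The deposited values are log2 probe set levels, so a difference of 1 is 2-fold. The medians of the ETP arrays lay between 3.51 and 3.59, those of the MMS arrays between 3.08 and 3.17 and those of the QUE arrays between 3.33 and 3.41, so levels are compared only within a chemical. VIM, FN1, CD44 and LGALS1 had vehicle means between 12.3 and 13.2 and S100A4 of 5.77, whereas the mesenchymal markers NT5E and THY1 (2.80 and 3.33), all 4 epithelial markers and the 4 blood markers on the array stayed below 4. Of the 5 tested mesenchymal markers 2 fell at ETP 3 µM, 5 at MMS 500 µM and 5 at QUE 100 µM, and their part in the results was not tested. Number 2 of the ETP and QUE experiments stood apart. Across the 12070 genes r between its ETP 3 µM array and the mean response of the other arrays was 0.304 for ETP 3 µM and 0.902 for QUE 100 µM. For its QUE 100 µM array, r was 0.89 against ETP and 0.387 against QUE. Results are therefore given without number 2 of ETP and QUE (n = 5 per group). Values that include it stand beside some of them, among these each proteasome gene whose highest-dose call was lost with it. MMS groups held 6 arrays, and MMS 500 µM held 5. A gene is called past the test at an adjusted p below 0.05 from limma with Benjamini-Hochberg adjustment over the 12070 genes of the comparison, whatever the size of its change. The array medians were close to each other within a chemical, so the values are read as relative RNA levels. Neither the number of cells nor the RNA per cell can be read from them.

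All 43 genes passed at 1 or more of the 3 highest doses, as did 83.9% of all tested genes. The split between higher and lower differed by chemical. At MMS 500 µM, 21 genes rose and 8 fell. At QUE 100 µM, 3 rose and 22 fell. At ETP 3 µM, 4 rose and 10 fell. Most changes were small. The number past the test that also changed at least 1.5-fold was 5 with MMS (1 higher, 4 lower), 4 with QUE (all lower) and 0 with ETP, where 17.7% and 16.9%, 13.1% and 14.5%, and 6.25% and 6.92% of all genes were higher and lower by that rule. Over all tested genes, 33.9% rose and 27.3% fell at MMS 500 µM, 25.8% rose and 24.7% fell at QUE 100 µM, and 20.9% rose and 20.5% fell at ETP 3 µM. The shares among the proteasome genes were 48.8% and 18.6% with MMS, 6.98% and 51.2% with QUE, and 9.3% and 23.3% with ETP. The median change of the 43 genes was 0.13 with MMS against 0.05 over all genes, -0.20 with QUE against 0.00, and -0.03 with ETP against 0.01.

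**Figure D1:**
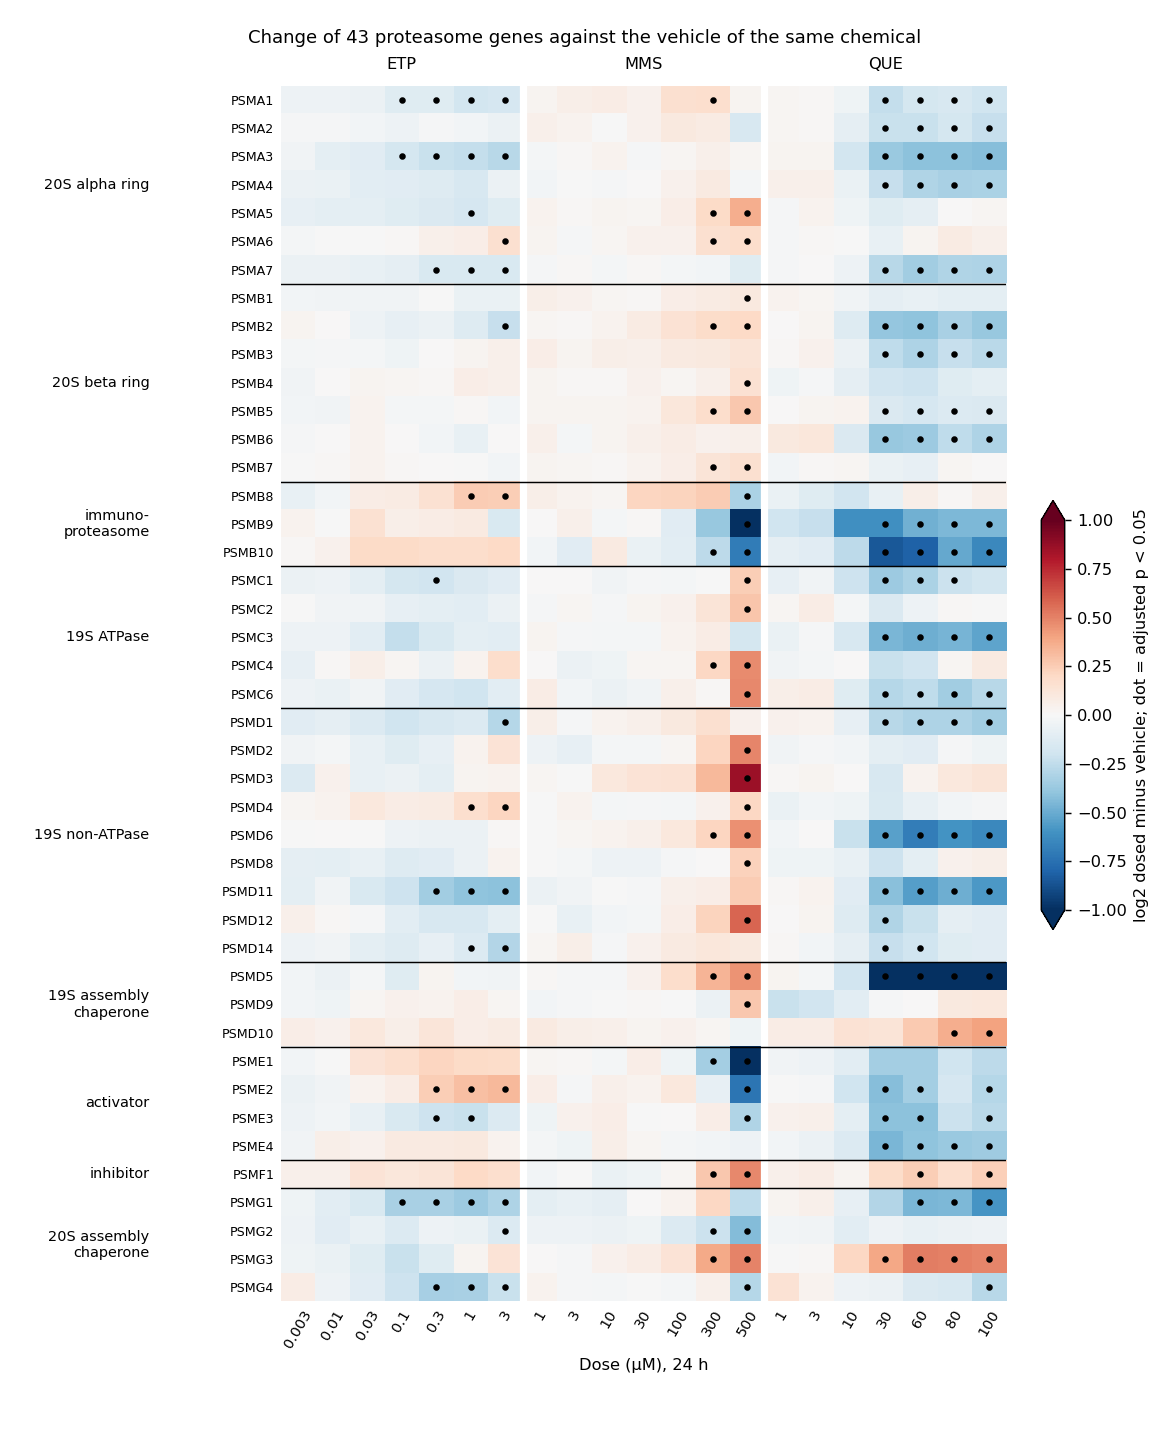
Heat map of the log2 change of each of the 43 proteasome genes (rows, grouped by role) against the vehicle of the same chemical at each of the 7 doses (columns, µM), where a dot marks an adjusted p below 0.05. Dots come from the fits without a replicate block. Colours saturate at 1 in either direction. QUE columns from 30 µM on are mostly blue, MMS 500 µM is red for caps and beta subunits and dark blue for PSMB9 and PSME1, and ETP colours are pale.

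The dose series set the chemicals apart as well. With MMS no member passed from 1 to 100 µM, where 0.0% of all genes passed at each dose up to 30 µM and 4.08% at 100 µM. At an unadjusted p below 0.05 the member counts there were 0, 0, 0, 0 and 4. For the unadjusted rule no share of all genes is given, here and below. At 300 µM, 11 rose and 3 fell, against 19.6% and 16.9% of all genes. Replicate numbers paired the MMS arrays up to 300 µM, and with the number as a block 4 members passed at 100 µM (3 higher, 1 lower) and 25 at 300 µM (21 higher, 4 lower). The shares of all genes given here and below are from the fits without the block, so none stands beside the block counts. With QUE no member passed at 1, 3 or 10 µM, where 0.0331%, 0.141% and 3.9% of all genes did. The member counts at an unadjusted p below 0.05 were 1, 1 and 6. With the block 5 passed at 10 µM (1 higher, 4 lower), and without vehicle number 1 the unblocked count there was 1. At 30 µM 1 rose and 23 fell, against 18.0% and 18.0% of all genes, and 60 µM gave 2 and 23 (24.7% and 22.6% of all genes) and 80 µM gave 2 and 20 (23.5% and 22.9%). At 30 µM all 5 dosed arrays lay below all 5 vehicle arrays for 22 of the 43 genes, which 15.9% of all genes also showed. Of the 28 genes that passed at some QUE dose, 24 did so first at 30 µM.

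With ETP no member passed at 0.003, 0.01 or 0.03 µM, where 0.0%, 0.0% and 2.57% of all genes did. The member counts at an unadjusted p below 0.05 were 0, 1 and 1. PSMA1, PSMA3 and PSMG1 fell from 0.1 µM on, the only 3 of the 43 to pass there without the block, against 5.9% of all genes higher and 8.08% lower. At 0.3 µM, 1 rose and 8 fell, against 11.0% and 8.72% of all genes. At 1 µM, 3 rose and 9 fell, against 17.5% and 14.7%. Without the block, the counts at the middle doses shifted when single arrays were left out. At 0.1 µM, leaving out dosed number 4 gave 0, leaving out dosed number 5 or vehicle number 1, 4 or 6 gave 1, leaving out dosed number 1 gave 5, and leaving out vehicle number 5 gave 6. At 0.3 µM the 9 members became 4 without dosed number 5 or vehicle number 1, and 5 without dosed number 3 or 6. The replicate numbers paired the ETP arrays at every dose, and with the block the totals from 0.03 to 3 µM were 8, 22, 19, 23 and 23, of which 7, 20, 15, 16 and 14 were lower. These totals cannot be set against the shares above, which came from the fits without the block. With number 2 kept the totals from 0.1 to 3 µM were 1, 5, 8 and 12. For QUE from 30 to 100 µM, number 2 kept gave 19, 23, 17 and 21.

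**Figure D2:**
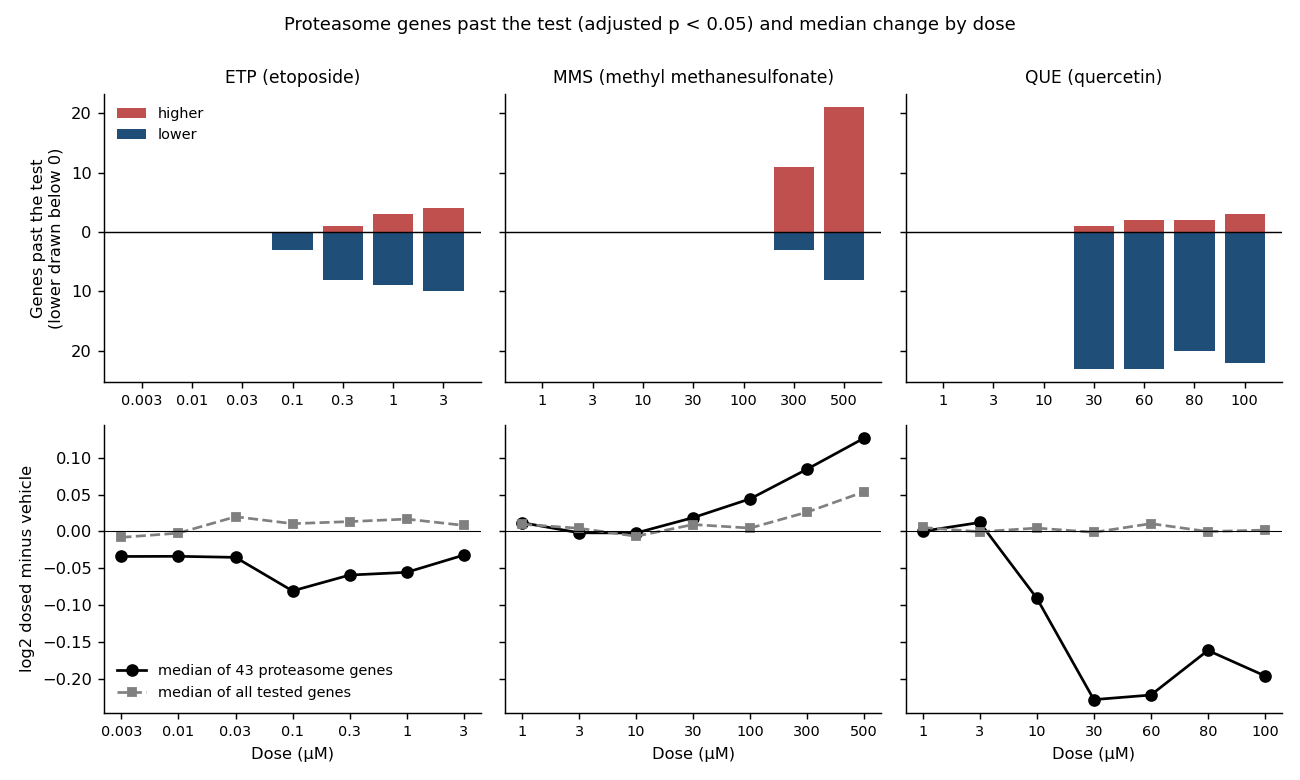
Number of the 43 proteasome genes past the test by dose (upper row, genes that fell drawn below 0) and their median log2 change beside that of all tested genes (lower row). The counts come from the fits without a replicate block. The QUE median lay between -0.16 and -0.23 from 30 to 100 µM, the MMS median reached 0.13 at 500 µM, and the ETP medians stayed between -0.08 and -0.03.

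The catalytic beta subunits of the standard core, PSMB5, PSMB6 and PSMB7, carry the chymotrypsin-like, caspase-like and trypsin-like sites. PSMB5 stood at 10.11 to 10.52 (median 10.29) in the MMS vehicle arrays and at 10.45, 10.79, 10.66, 10.42 and 10.49 at 500 µM, with the highest vehicle array above 3 of the dosed ones. It rose by 0.27 ± 0.07 (SE; adjusted p = 0.000962), after 0.17 at 300 µM (adjusted p = 0.0378). PSMB7 rose by 0.16 ± 0.04 (adjusted p = 0.000427), from a vehicle range of 11.17 to 11.40 to 11.47, 11.35, 11.44, 11.45 and 11.49, and only the dosed array of number 3 lay within that range. For PSMB6 the MMS change was 0.05 (adjusted p = 0.505), with dosed arrays at 10.32, 10.55, 10.54, 10.20 and 10.34 across the vehicle range of 10.24 to 10.44.

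With QUE both PSMB5 and PSMB6 fell. PSMB6 stood at 10.67, 10.58, 10.77, 10.61 and 10.75 in the vehicle arrays and at 10.22, 10.74, 10.31, 10.29 and 10.28 at 100 µM, where number 3 alone overlapped the vehicle. It fell by 0.31 ± 0.09 (adjusted p = 0.00539), and without the arrays whose titles carry a suffix, which the labels do not explain, the change was -0.25 (adjusted p = 0.0589). PSMB5 fell by 0.14 ± 0.05 (adjusted p = 0.0155) from 10.50, 10.41, 10.37, 10.40 and 10.47 to 10.22, 10.37, 10.41, 10.20 and 10.23, with numbers 3 and 4 inside or beside the vehicle range. This call was lost without dosed number 5 (adjusted p = 0.0549) and with number 2 kept (-0.10, adjusted p = 0.0964). PSMB7 did not pass, at 11.51, 11.90, 11.83, 11.66 and 11.72 dosed against 11.71, 11.69, 11.81, 11.68 and 11.71 in the vehicle arrays. With ETP 3 µM none of these 3 subunits passed. PSMB5 stood there at 10.62, 10.47, 10.45, 10.58 and 10.57 against 10.62, 10.53, 10.60, 10.52 and 10.55, PSMB6 at 10.84, 10.60, 10.74, 10.79 and 10.75 against 10.80, 10.63, 10.78, 10.70 and 10.79, and PSMB7 at 11.66, 11.74, 11.73, 11.66 and 11.69 against 11.75, 11.74, 11.81, 11.58 and 11.73.

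Of the other core subunits, PSMB1, PSMB2 and PSMB4 also rose at MMS 500 µM, by 0.10, 0.20 and 0.15, which made 5 of the 7 beta ring genes. Of the 7 alpha ring genes PSMA5 and PSMA6 rose, by 0.37 and 0.18, and none fell. The core rings thus gave 7 higher and 0 lower of 14. The PSMB1 call was lost without dosed number 2 or 6 or vehicle number 1, 2 or 5 (adjusted p 0.0575 to 0.088), and that of PSMB4 without dosed number 2 (0.0561). The other kept PSMB4 probe sets were 0.06 and -0.29 from the vehicle and did not pass. At QUE 100 µM 0 of these 14 genes rose and 9 fell: PSMA1, PSMA2, PSMA3, PSMA4 and PSMA7 by 0.20 to 0.43, and PSMB2, PSMB3, PSMB5 and PSMB6 by 0.14 to 0.38. The same 9 fell at each dose from 30 µM. ETP 3 µM lowered PSMA1 by 0.17, PSMA3 by 0.28, PSMA7 by 0.15 and PSMB2 by 0.23, and raised PSMA6 by 0.16. With the replicate block PSMA5 also passed as lower (-0.12, adjusted p = 0.0056). Over the 3 experiments PSMA3 showed the difference plainly, with -0.43 for QUE, -0.28 for ETP and 0.02 (adjusted p = 0.826) for MMS, and MMS minus QUE passed as a contrast of its own (0.44 ± 0.09, adjusted p = 2.44e-05).

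Of the 14 measured structural subunits of the 19S cap, 10 rose and 0 fell at MMS 500 µM. At 300 µM 2 rose and 0 fell, where the core rings gave 6 and 0. These counts are from the fits without the block, in which 33.9% of all genes rose at 500 µM and 19.6% at 300 µM. The median change at 300 µM was 0.12 for the cap and 0.09 for the core rings, so the counts alone do not show which rose first. PSMD3, a scaffold subunit of the cap's lid, changed most of all 43 genes upward. Its vehicle arrays ran from 7.60 to 8.34 (median 8.16), and the dosed arrays stood at 8.84, 9.45, 9.17, 8.69 and 8.64, all above them. The rise was 0.85 ± 0.15, or 1.81-fold (adjusted p = 3.87e-06). PSMD12, another lid subunit, stood at 10.82, 10.48, 10.67, 10.78 and 10.96 against 9.86 to 10.35 (median 10.19), also without overlap, and rose by 0.58 ± 0.10 (adjusted p = 4.65e-06). The remaining rises were PSMD2, a ubiquitin-receptor scaffold (0.49), PSMD6 (0.45), PSMD8 (0.23), PSMD4, a ubiquitin receptor (0.20), and the ATPases PSMC6 (0.48), PSMC4 (0.47), PSMC2 (0.28) and PSMC1 (0.24). The other kept PSMC2 probe sets were -0.09 and -0.26 from the vehicle and did not pass. PSMD14, the deubiquitinase of the cap, did not pass (0.10, adjusted p = 0.185), and PSMC3 did not either (-0.17, adjusted p = 0.193).

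With QUE 0 of the 14 cap genes rose and 5 fell at 100 µM. PSMD6, a lid subunit, stood at 11.22, 11.06, 11.09, 11.18 and 11.12 in the vehicle arrays and at 10.55, 10.44, 10.49, 10.47 and 10.48 at 100 µM, a clear gap. It fell by 0.65 ± 0.08 (adjusted p = 2.73e-08), and by 0.51 with number 2 kept (adjusted p = 0.00045). PSMD11, which helps join cap and core, fell by 0.57 ± 0.10 (adjusted p = 2.1e-05), from 10.52, 10.09, 9.99, 10.30 and 10.29 to 9.58, 9.82, 9.60, 9.68 and 9.64. Here too every dosed array was below every vehicle array. This holds for the brighter PSMD11 probe set only, since the other kept one changed by -0.08 (adjusted p = 0.556). PSMC3 fell by 0.53, PSMD1 by 0.35 and PSMC6 by 0.27, the last losing its call without dosed number 3, 4 or 6 or vehicle number 1 (adjusted p 0.0558 to 0.0785). PSMD11 also headed the ETP falls, at 9.97, 9.72, 9.73, 9.98 and 9.87 against 10.47, 10.14, 10.20, 10.19 and 10.31 in its vehicle, again without overlap. Its change at ETP 3 µM was -0.41 ± 0.12 (adjusted p = 0.00673), and that of the other kept probe set was -0.02 (adjusted p = 0.883). PSMD14 stood at 11.61, 11.53, 11.45, 11.58 and 11.48 against 11.85, 11.77, 11.91, 11.74 and 11.83, and PSMD4 at 11.40, 11.30, 11.33, 11.45 and 11.38 against 11.12, 11.27, 11.18, 10.99 and 11.24. Neither overlapped its vehicle, the first falling by 0.29 ± 0.05 (adjusted p = 1.75e-05) and the second rising by 0.21 ± 0.05 (adjusted p = 0.000348). With PSMD1, which fell by 0.29, 1 of the 14 cap genes rose with ETP and 3 fell in the fit without the block. The PSMD1 call was lost in that fit without dosed number 4 or vehicle number 1 (adjusted p 0.0927 and 0.106). With the replicate block PSMD1 passed (adjusted p = 5.54e-07). The block also let PSMC4 (0.18, adjusted p = 0.0074) and PSMD2 (0.14, adjusted p = 0.00623) pass as higher. PSMC1 (-0.11, adjusted p = 0.00714) and PSMD12 (-0.095, adjusted p = 0.0473) passed there as lower.

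The promoter of PSMD3 is shown because this gene rose most with MMS and its window holds the core of the antioxidant response element, the motif class that NFE2L1 and NFE2L2 bind. The letters are the 250 bases before the RefSeq start, chr17:39980557-39980806 on the plus strand of GRCh38.p14. Capitals mark the match to TGACNNNGC at -37 to -29.
PSMD3: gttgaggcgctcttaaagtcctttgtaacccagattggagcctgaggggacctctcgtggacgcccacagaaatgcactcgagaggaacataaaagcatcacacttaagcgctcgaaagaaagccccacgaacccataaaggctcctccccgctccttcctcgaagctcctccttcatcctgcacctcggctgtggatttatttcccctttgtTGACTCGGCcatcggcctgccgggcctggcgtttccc
Of the 43 genes, 37 matched a RefSeq promoter by symbol, and 12 of these held TGACNNNGC on either strand in the 250 bases, which is 32.4% against 13.2% of 27305 genes. The 27305 genes include many outside the 12070 tested here, so the percentages come from unlike sets. At MMS 500 µM 4 of the 12 rose, 4 fell and 4 did not pass. At QUE 100 µM 0 rose and 7 fell, and at ETP 3 µM 1 rose and 2 fell. Over the 43 genes the shares higher and lower were 48.8% and 18.6%, 6.98% and 51.2%, and 9.3% and 23.3%. Over all tested genes they were 33.9% and 27.3%, 25.8% and 24.7%, and 20.9% and 20.5%. The part of the motif in these changes was not tested.

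PSMD5, PSMD9 and PSMD10 are chaperones that hold the ATPases while the base of the cap is assembled and are not part of the finished particle. PSMD5 gave the largest fall with QUE of the 43 genes. It stood at 7.48, 7.35, 7.32, 7.18 and 7.30 in the vehicle arrays and at 6.04, 6.07, 5.57, 5.46 and 5.60 at 100 µM, more than a log2 unit apart. The change was -1.58 ± 0.17, a fold of 0.334 (adjusted p = 3.06e-09), and it was -1.26 at 30 µM, -1.55 at 60 µM and -1.41 at 80 µM. With number 2 kept it was -1.28 (adjusted p = 0.000243). The QUE 100 µM array of number 2 stood at 7.43 beside its vehicle at 7.20, and the ETP 3 µM array of number 2 at 6.05 beside its vehicle at 7.48. With MMS PSMD5 rose, by 0.34 at 300 µM and by 0.45 ± 0.08 at 500 µM (adjusted p = 1.64e-06), from 6.98 to 7.28 (median 7.11) in the vehicle arrays to 7.53, 7.64, 7.77, 7.43 and 7.50. The MMS 500 µM and QUE 100 µM changes differed by 2.03 ± 0.17 (adjusted p = 1.92e-19), the widest difference of any of the 43 genes. With ETP 3 µM PSMD5 stood at 7.70, 7.32, 7.54, 7.59 and 7.68 against 7.73, 7.37, 7.60, 7.60 and 7.70, and the change of -0.03 did not pass (adjusted p = 0.828).

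The window of PSMD5 is printed because the gene moved in opposite directions with the 2 chemicals and holds the same motif class. It covers chr9:120842923-120843172 on the minus strand of GRCh38.p14, and capitals mark TGACNNNGC at -134 to -126.
PSMD5: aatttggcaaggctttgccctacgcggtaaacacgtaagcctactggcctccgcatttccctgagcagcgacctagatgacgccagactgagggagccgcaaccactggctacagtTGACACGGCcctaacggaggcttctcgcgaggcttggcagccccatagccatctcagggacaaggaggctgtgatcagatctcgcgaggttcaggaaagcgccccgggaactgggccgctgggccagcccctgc

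PSMD10 (gankyrin) rose with QUE by 0.40 ± 0.11 (adjusted p = 0.00348), from 9.73, 9.78, 9.73, 9.77 and 9.87 to 9.76, 10.50, 10.31, 10.22 and 10.08, with number 1 alone inside the vehicle range. PSMD9 rose with MMS by 0.27 (adjusted p = 4.77e-05) and did not pass with QUE (0.10, adjusted p = 0.214). None of these 3 chaperones passed with ETP.

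**Figure D3:**
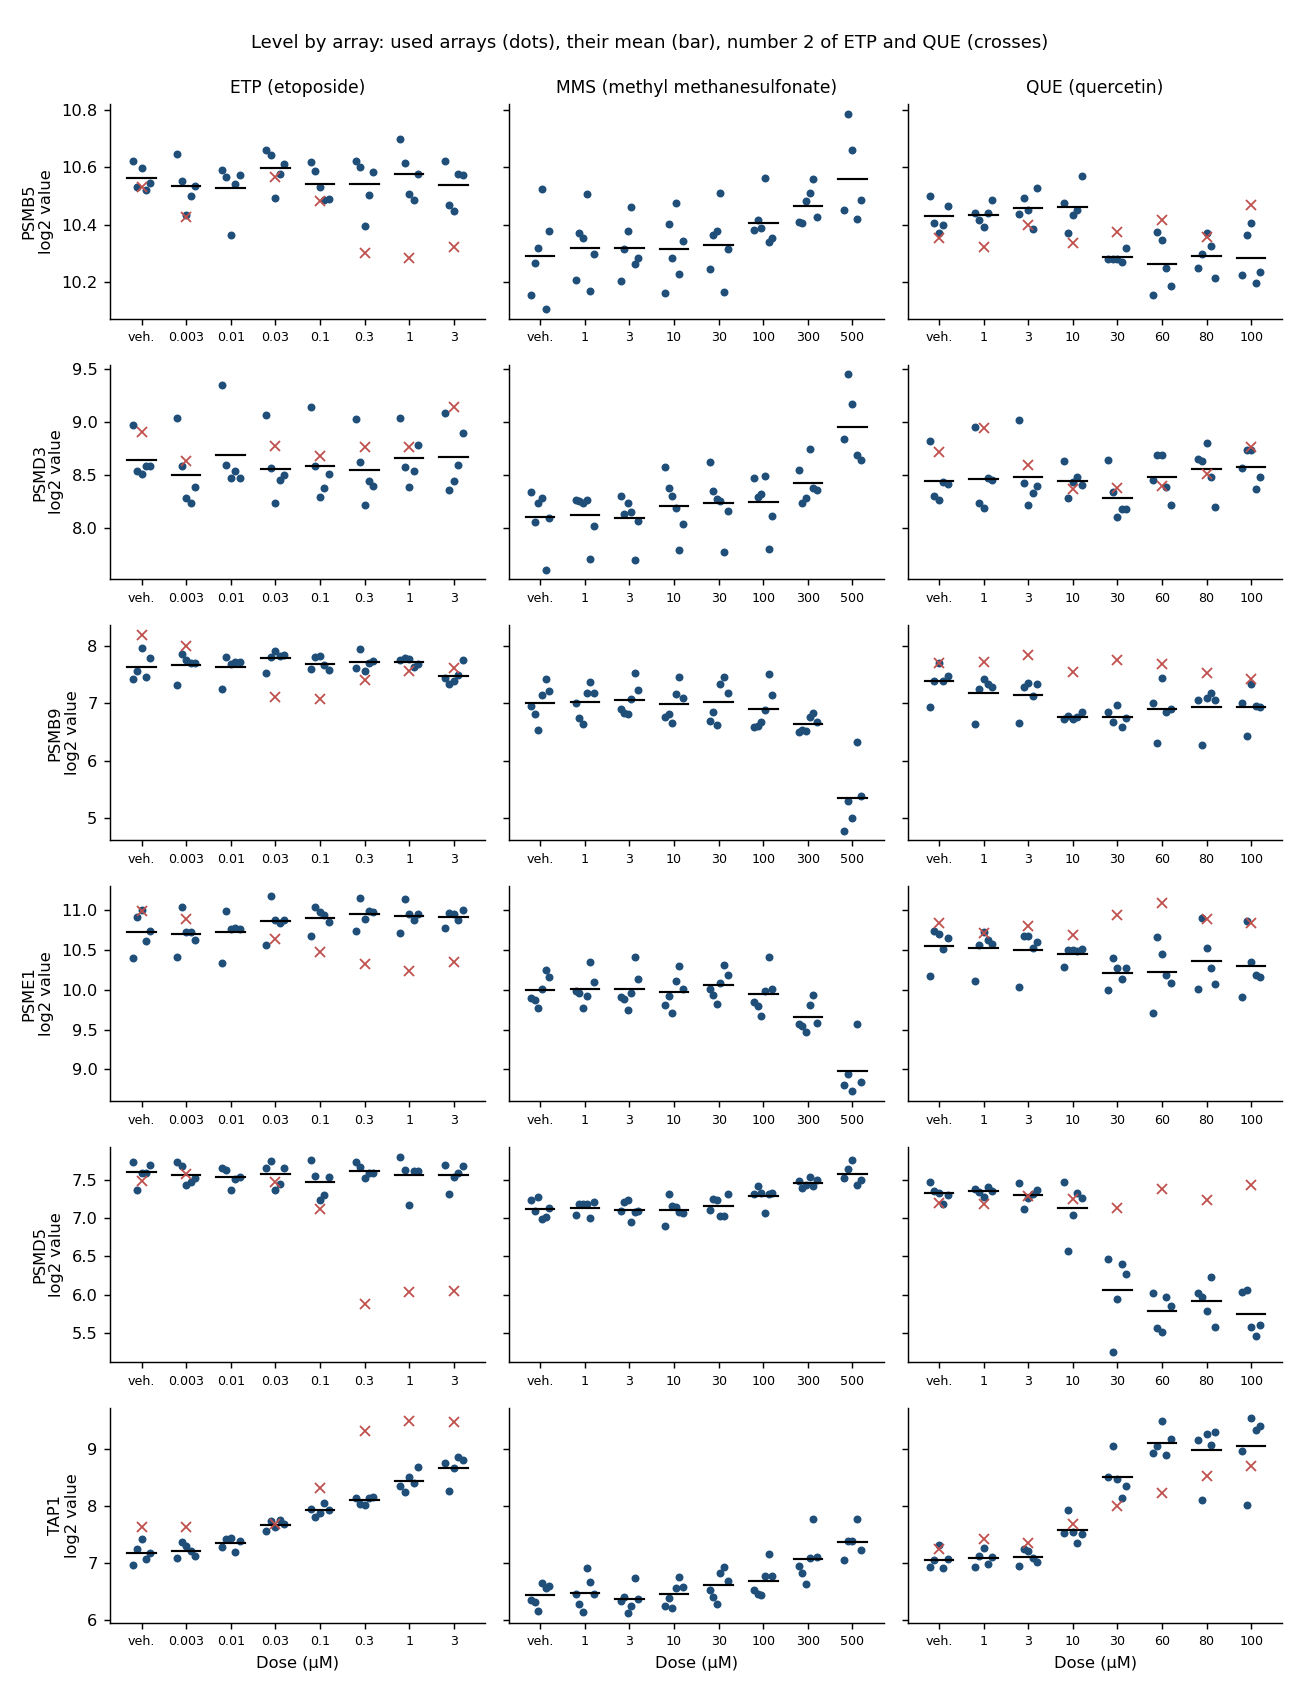
Log2 level of PSMB5, PSMD3, PSMB9, PSME1, PSMD5 and the neighbouring gene TAP1 in each array (dots) by dose (µM), with the group mean as a bar and number 2 of the ETP and QUE experiments as crosses, which no mean includes. The MMS 500 µM arrays of PSMB9 lay between 4.78 and 6.33, PSMD5 dropped from 30 µM of QUE on, and TAP1 climbed with all 3 chemicals.

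All 3 immunoproteasome subunits fell at MMS 500 µM, and PSMB9 fell most of the 43 genes. PSMB9 stood at 6.52 to 7.42 (median 7.05) in the vehicle arrays, at 6.50 to 6.84 (median 6.60) at 300 µM and at 4.78, 5.30, 4.99, 6.33 and 5.38 at 500 µM. All 5 arrays at 500 µM lay below the lowest vehicle array, number 5 least so. The change was -1.66 ± 0.20, a fold of 0.317 (adjusted p = 1.13e-09), and -0.38 at 300 µM (adjusted p = 0.12, and 0.00154 with the replicate block). PSMB10 fell by 0.26 at 300 µM and by 0.70 ± 0.10 at 500 µM (adjusted p = 1.42e-07), from 7.20 to 7.47 (median 7.32) to 6.45, 6.96, 6.43, 6.57 and 6.68, without overlap. PSMB8 was 0.25 above its vehicle at 300 µM, where it did not pass. At 500 µM it fell by 0.32 ± 0.13 (adjusted p = 0.0293), at 6.93, 7.27, 6.91, 7.89 and 7.17 against 7.37 to 7.78 (median 7.52). Number 5 was above the whole vehicle range, and the call was lost without dosed number 2, 4 or 6 or vehicle number 5 or 6 (adjusted p 0.0558 to 0.125).

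With QUE 2 of the 3 fell. PSMB10 stood at 7.44, 7.96, 7.85, 7.83 and 7.92 in the vehicle arrays and at 6.64, 7.73, 7.41, 7.03 and 6.97 at 100 µM, where number 3 overlapped the vehicle. Its fall was 0.85 at 30 µM and 0.64 ± 0.17 at 100 µM (adjusted p = 0.0018). PSMB9 fell by 0.62 at 30 µM (adjusted p = 0.00808) and by 0.45 ± 0.18 at 100 µM (adjusted p = 0.0412), from 6.94, 7.39, 7.70, 7.39 and 7.48 to 7.01, 6.43, 7.34, 6.95 and 6.93. Those ranges overlapped, and the call at 100 µM was lost without dosed number 3, 5 or 6 or any of vehicle numbers 3 to 6 (adjusted p 0.0604 to 0.147) and with number 2 kept (adjusted p = 0.114). At 10 µM PSMB9 was -0.61 from its vehicle (adjusted p = 0.0503, and 0.00817 with the replicate block). PSMB8 did not pass, at 8.16, 7.83, 8.65, 8.34 and 8.28 against 7.94, 8.34, 8.34, 8.19 and 8.20.

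With ETP 3 µM PSMB8 rose by 0.24 ± 0.10 (adjusted p = 0.04), at 8.60, 8.44, 8.59, 8.59 and 8.73 against 8.01, 8.51, 8.57, 8.24 and 8.39. The lowest dosed array lay below 2 vehicle arrays, and the call was lost without dosed number 1, 4, 5 or 6 or vehicle number 1 or 5 (adjusted p 0.0604 to 0.185) and with number 2 kept (0.17, adjusted p = 0.255). PSMB9 (7.43, 7.34, 7.39, 7.49 and 7.75 against 7.42, 7.56, 7.96, 7.46 and 7.78) and PSMB10 (7.98, 8.23, 8.01, 8.17 and 8.23 against 7.70, 8.21, 7.86, 7.84 and 8.02) did not pass. PSMB10 was higher in every same-numbered pair, and with the replicate block it passed (0.20, adjusted p = 0.00273), whereas PSMB9 did not (-0.15, adjusted p = 0.125). PSMB8 kept its call with the block (adjusted p = 0.00507). The MMS minus ETP difference passed for all 3, at -1.50 for PSMB9, -0.90 for PSMB10 and -0.56 for PSMB8.

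PSMB9 shares its promoter region with TAP1, which encodes a subunit of the peptide transporter that carries proteasome products into the endoplasmic reticulum. In RefSeq the start sites point away from each other with 487 bases between them on chromosome 6. TAP1 did not follow PSMB9. It rose at MMS 500 µM by 0.92 ± 0.16 (adjusted p = 2.02e-06), with dosed arrays at 7.06, 7.39, 7.40, 7.78 and 7.23 and all 6 vehicle arrays lower. At QUE 100 µM it stood at 8.97, 8.02, 9.55, 9.34 and 9.41 against 6.94, 7.06, 7.33, 6.92 and 7.08, a rise of 1.99 ± 0.21 (adjusted p = 1.02e-09). At ETP 3 µM it rose by 1.49 ± 0.09 (adjusted p = 2.51e-15). No dosed array overlapped the vehicle in any of the 3 experiments. PSMB9 at those doses was -1.66, -0.45 and -0.15 from its vehicle.

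Both windows of this shared region are printed because the genes on either side moved apart. PSMB9 is read on the plus strand, chr6:32853942-32854191, where capitals mark the reverse of TGACNNNGC at -148 to -140. TAP1 is read on the minus strand, chr6:32853705-32853954, the window of 1 of its 2 listed starts, which holds no match and has no capitals. The windows share 13 bases.
PSMB9: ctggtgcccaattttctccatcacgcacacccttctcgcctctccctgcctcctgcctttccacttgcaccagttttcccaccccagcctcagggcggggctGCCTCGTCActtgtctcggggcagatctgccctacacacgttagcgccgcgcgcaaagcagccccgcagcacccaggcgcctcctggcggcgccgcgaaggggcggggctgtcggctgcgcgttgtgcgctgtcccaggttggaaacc
TAP1: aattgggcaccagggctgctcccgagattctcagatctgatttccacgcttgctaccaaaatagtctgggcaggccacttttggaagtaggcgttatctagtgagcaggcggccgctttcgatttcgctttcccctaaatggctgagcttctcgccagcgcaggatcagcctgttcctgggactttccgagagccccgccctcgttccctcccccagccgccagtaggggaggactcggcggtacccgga

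Other interferon-responsive genes measured beside the immunoproteasome also went different ways. Of 7, 6 rose at ETP 3 µM, among them IRF1 by 0.24, which did not pass with number 2 kept (0.14, adjusted p = 0.505). At MMS 500 µM TAP1, ISG15 (0.92), IFI6 (0.62) and IFIT3 (0.32) rose, while IRF1 (-1.12), a transcription factor that drives PSMB9 and TAP1 in interferon-treated cells, NLRC5 (-0.46) and OAS2 (-0.45) fell, the last pair from vehicle means below 4. With QUE 100 µM TAP1, IFI6 and ISG15 rose, and IRF1 fell by 0.66 and NLRC5, an activator of antigen presentation genes, by 1.00. The IRF1 fall was -0.48 with number 2 kept (adjusted p = 0.0651). The part of these genes in the immunoproteasome values was not tested.

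Of the 4 activators, PSME1, PSME2 and PSME3 fell at MMS 500 µM, the last by some of its probe sets only, and PSME4 did not pass (-0.05, adjusted p = 0.549). PSME1 stood at 9.77 to 10.25 (median 9.95) in the vehicle arrays, at 9.47 to 9.94 at 300 µM and at 8.81, 8.95, 8.73, 9.57 and 8.84 at 500 µM, where number 5 was again the highest. The change was -0.34 at 300 µM (adjusted p = 0.0276) and -1.02 ± 0.13 at 500 µM (adjusted p = 5.49e-09). Its partner PSME2 fell by 0.73 ± 0.08 (adjusted p = 3.02e-10), from 9.93 to 10.20 (median 10.06) to 9.08, 9.47, 9.42, 9.39 and 9.20, without overlap. With ETP PSME2 rose by 0.25 at 0.3 µM and by 0.32 ± 0.08 at 3 µM (adjusted p = 0.000855), at 11.12, 10.70, 10.82, 11.03 and 10.91 against 10.58, 10.66, 10.53, 10.59 and 10.59, all dosed arrays being higher. With number 2 kept that rise was 0.21 (adjusted p = 0.194). With QUE PSME2 fell by 0.42 at 30 µM and by 0.29 ± 0.07 at 100 µM (adjusted p = 0.00137), at 9.97, 10.24, 10.25, 10.10 and 10.15 against 10.31, 10.50, 10.36, 10.49 and 10.48, and by 0.17 with number 2 kept (adjusted p = 0.229). PSME1 did not pass with QUE (-0.26, adjusted p = 0.194) or, without the block, with ETP (0.18, adjusted p = 0.199). With the block it passed with ETP (adjusted p = 0.00254).

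PSME3, the nuclear PA28 gamma activator, and PSME4, the PA200 activator, depended on the probe set. The brightest PSME3 probe set fell at MMS 500 µM by 0.30 ± 0.09 (adjusted p = 0.00428), from 8.99 to 9.48 (median 9.24) to 8.95, 9.00, 8.71, 9.02 and 9.08, with some overlap. A second bright one was lower by 0.36, whereas 2 dimmer ones were higher by 0.86 and 0.61 (adjusted p = 0.00112 and 0.0125 in a fit of all probe sets), and the mean of all 4 was 0.20 above the vehicle (adjusted p = 0.196). With QUE 100 µM PSME3 fell by 0.27, a call lost without dosed number 5 or 6 or vehicle number 1 (adjusted p 0.0505 to 0.0734) and with number 2 kept (-0.19, adjusted p = 0.0748). PSME4 fell by 0.36 (adjusted p = 0.00197) with QUE, from 9.46, 9.42, 9.30, 9.32 and 9.27 to 9.09, 8.69, 9.09, 9.05 and 9.06, all lower, and 2 of its other probe sets were lower by 0.73 and 0.78, while the dimmest was higher by 0.79 (adjusted p = 0.0335). In all, 30 other probe sets of the 43 genes were kept, and these were the ones that passed in the direction opposite to the brightest. Others did not pass: of the genes called by the brightest probe set that had another, 10 of 13 at MMS 500 µM, 6 of 12 at QUE 100 µM and 5 of 7 at ETP 3 µM had at least 1 such. For PSMD5 it was a probe set with a mean of 3.55, which changed by 0.06 with QUE and -0.02 with MMS. PSMB4 and PSMC2 at MMS 500 µM, as means over their kept probe sets, were -0.026 and -0.023 from the vehicle in place of the rises given above.

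PSMF1, the inhibitor PI31, rose at MMS 500 µM by 0.48 ± 0.07 (adjusted p = 3.77e-08), at 8.31, 8.23, 8.20, 8.17 and 8.38 with every vehicle array lower, and by 0.27 at 300 µM. With QUE 100 µM it rose by 0.23 ± 0.09 (adjusted p = 0.0344), at 8.57, 8.58, 8.53, 8.70 and 8.65 against 8.52, 8.35, 8.38, 8.25 and 8.35. The dosed arrays were all higher, but the call was lost without dosed number 5 or 6 or vehicle number 3, 5 or 6 (adjusted p 0.0568 to 0.0878) and without the arrays with a title suffix (adjusted p = 0.126).

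The 20S assembly chaperones PSMG1 to PSMG4, which pair up to build the alpha ring, did not move as a group. PSMG3 rose with MMS by 0.49 ± 0.12 (adjusted p = 0.000303), at 8.64, 8.98, 8.94, 8.80 and 8.62 against 8.08 to 8.55 (median 8.29), and with QUE by 0.49 ± 0.08 (adjusted p = 5.48e-06), at 9.24, 9.06, 9.17, 8.99 and 9.03 against 8.84, 8.46, 8.56, 8.50 and 8.68. No dosed array overlapped the vehicle in either experiment. Its partner PSMG4 fell by 0.28 with MMS and by 0.28 with QUE. The latter call was lost without dosed number 3 or vehicle number 6 (adjusted p 0.07 and 0.0856). PSMG2 fell with MMS by 0.43 ± 0.06 (adjusted p = 2.14e-08), after 0.22 at 300 µM, and its partner PSMG1 was -0.26 from the vehicle (adjusted p = 0.0556). PSMG1 fell with QUE by 0.59 ± 0.16 (adjusted p = 0.00197), from 10.88, 10.73, 10.60, 10.79 and 10.78 to 10.55, 10.01, 10.10, 10.05 and 10.11, number 1 being the highest of the dosed arrays.

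With ETP 3 of the 4 fell. PSMG1 was lower at each dose from 0.1 µM and stood at 10.73, 10.48, 10.35, 10.52 and 10.72 at 3 µM against 11.22, 10.88, 10.61, 10.74 and 10.89, a fall of 0.31 ± 0.10 (adjusted p = 0.0121) that was lost without vehicle number 1 (0.0725). PSMG4 fell by 0.22 and PSMG2 by 0.13. The first was lost without dosed number 3 or 4 or vehicle number 6 (adjusted p 0.0643 to 0.11), the second without dosed number 6 or vehicle number 4 (0.0634 and 0.084). These losses came from fits without the replicate block. With the block PSMG1, PSMG4 and PSMG2 passed (adjusted p = 1.63e-07, 0.000319 and 0.00276).

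Set side by side, 5 genes (11.6%) rose with MMS 500 µM and fell with QUE 100 µM (PSMB2, PSMB5, PSMC6, PSMD5 and PSMD6), against 3.19% of all genes. Another 5 (11.6%) fell with both (PSMB9, PSMB10, PSME2, PSME3 and PSMG4), against 13.9%, and 2 (4.65%) rose with both (PSMF1 and PSMG3), against 15.9%. The count that fell with MMS and rose with QUE was 0, against 2.09%. As a contrast, MMS 500 µM minus QUE 100 µM passed for 29 of the 43 genes, 24 higher and 5 lower, against 22.5% and 19.0% of all genes. Among them were 11 of the 14 core ring genes and 11 of the 14 cap genes, all higher with MMS. After each array was centred on its median the split was 16 and 6, and with number 2 kept it was 19 and 6. MMS 500 µM minus ETP 3 µM passed for 19 higher and 6 lower, against 25.2% and 20.7%. QUE 100 µM minus ETP 3 µM passed for 1 higher and 8 lower, against 16.9% and 18.1%. That split was 0 and 8 after quantile normalization, 0 and 7 after centring, 3 and 14 with the replicate block, and 0 and 0 with number 2 kept. In the separate fits 8 genes fell with both QUE and ETP (PSMA1, PSMA3, PSMA7, PSMB2, PSMD1, PSMD11, PSMG1 and PSMG4), or 18.6% against 9.49% of all genes. PSMB8 and PSME2 rose with ETP and fell with MMS, or 4.65% against 3.12%.

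**Figure D4:**
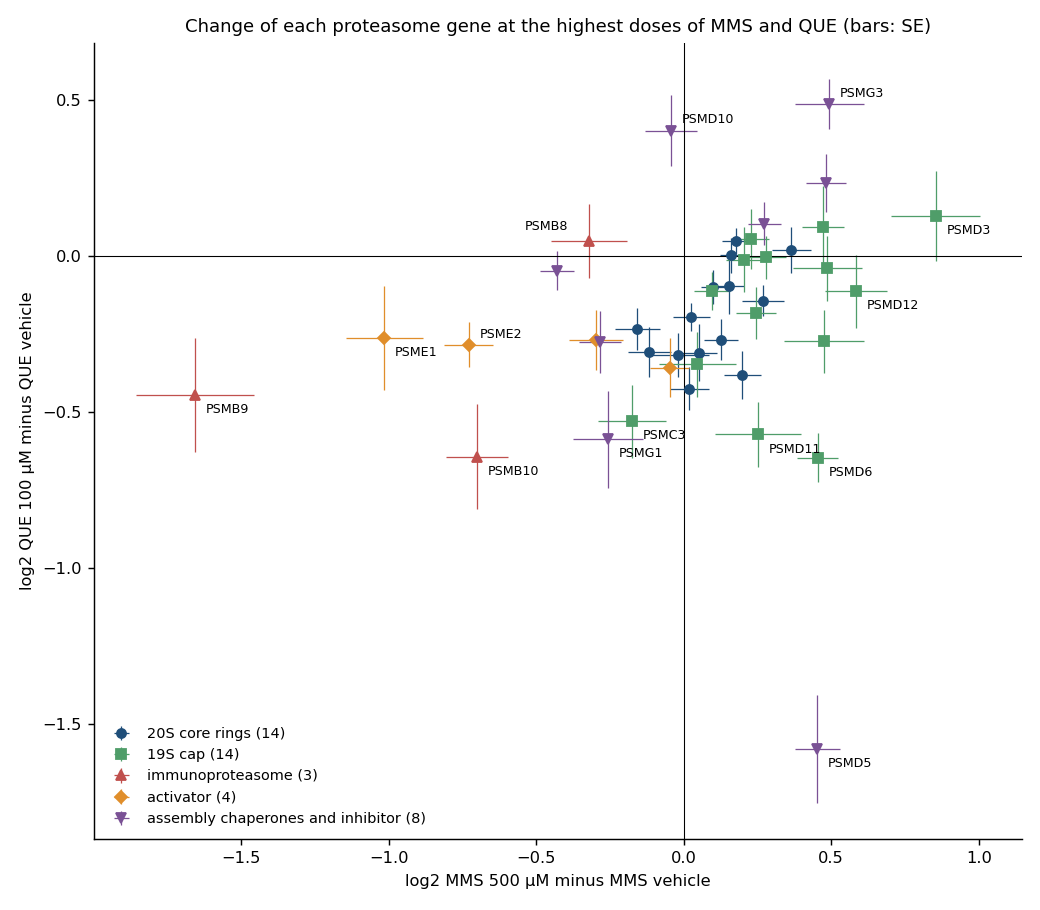
Log2 change of each proteasome gene at MMS 500 µM (horizontal) and at QUE 100 µM (vertical), each against its own vehicle, with standard errors as bars and the role as colour and shape. Core and cap genes lie mostly right of or near 0 on the MMS axis and at or below 0 on the QUE axis, PSMD5 lies far below at -1.58, and PSMB9, PSMB10, PSME1 and PSME2 lie to the left.

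The other genes of the pathway, 26 tested of a list of 32, gave 18 higher and 0 lower at MMS 500 µM, 6 higher and 10 lower at QUE 100 µM, and 2 higher and 7 lower at ETP 3 µM. Over all genes the shares were 33.9% and 27.3%, 25.8% and 24.7%, and 20.9% and 20.5%, near which the QUE rises and ETP falls of the list lie. Their medians were 0.37, -0.04 and -0.04. NFE2L1, the activator of proteasome genes, rose by 0.50 ± 0.07 with MMS (adjusted p = 3.56e-08). With QUE it fell by 0.21 (adjusted p = 0.0358), a call lost without any 1 of dosed or vehicle numbers 3 to 5 (adjusted p 0.0545 to 0.138), and with ETP it did not pass (-0.03, adjusted p = 0.794). NFE2L2, its antioxidant relative, was -0.07 with MMS (adjusted p = 0.297) and fell by 0.50 with QUE (adjusted p = 0.000683). DDI2, the protease that activates NFE2L1, rose by 0.97 with both MMS and QUE. POMP, the core maturation factor, rose by 0.16 with MMS and by 0.13 with QUE. ZFAND2A, an arsenite-inducible proteasome-associated protein, was the largest change of the list. Its MMS vehicle arrays ran from 6.39 to 6.67, and the 500 µM arrays stood at 10.33, 9.71, 11.24, 9.86 and 10.44. The rise was 3.81 ± 0.17 with MMS (adjusted p = 1.19e-22) and 1.31 ± 0.15 with QUE (adjusted p = 7.34e-09). With ETP it was 0.44 (adjusted p = 0.014), lost without dosed number 6 or vehicle number 5 (adjusted p 0.0564 and 0.0719).

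ADRM1, the ubiquitin receptor of the cap, rose by 0.84 with MMS and 0.50 with QUE, and NPLOC4, an adaptor of the VCP segregase, by 0.85 with MMS (0.07 with QUE, adjusted p = 0.707). The ligase UBE3A fell by 0.82 with QUE and 0.46 with ETP and rose by 0.39 with MMS. The shuttle UBQLN1 fell by 0.67 with QUE and rose by 0.28 with MMS. ETP lowered ECPAS, which couples core and cap, by 0.40 and the deubiquitinase UCHL5 by 0.42, the latter -0.22 with number 2 kept (adjusted p = 0.253).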

How the data were processed

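Per the submitters' processing notes, the deposited log2 values came from Affymetrix arrays summarised by GCRMA in Partek; versions and further steps are not given in the sources used here. Arrays that repeat a replicate number in a group were averaged, which left 142 replicates of 145 arrays. Probe sets with 1 gene symbol were kept at log2 of 4 or more in at least 5 arrays, and each gene took its brightest, giving 12070 genes. Array number limits the precision.

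Each chemical was fitted with limma 3.58.1 in R 4.3.3 (lmFit, eBayes with trend), 8 groups at a time and dose against vehicle. Differences between chemicals came from 1 fit of all 24 groups. P-values were adjusted by Benjamini-Hochberg over genes within each comparison. The scripts were tested on simulated data. Values by array are given for PSMB5 to PSMB10, for the 3 largest rises and falls at each highest dose, and for genes whose probe sets disagreed; partners were named by size of change, with NFE2L1, NFE2L2 and POMP always. Members and lists were chosen with earlier results of these data known.

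Replicate numbers were checked for pairing by the correlation of deviations from group means. Every same-numbered pair was above 0.1 for ETP at all doses, for MMS from 1 to 300 µM and for QUE from 1 to 30 µM, and not at MMS 500 µM (lowest -0.012) or QUE 60 to 100 µM (lowest 0.062). Alternatives changed the replicate block, number 2, the samples in the fit, the trend, the filter, the probe set rule, the scaling, repeated arrays, suffixed titles and the fold rule, and left out each replicate in turn. Promoter sequences are from RefSeq on GRCh38.p14.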

Additional observations from a re-analysis of the deposited data

Results flagged for a closer look

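In 9 of 126 groups of arrays, 1 array stood far from the others on Dixon's test, which chance gives in about 1 of 20 groups. The groups were the vehicle and highest dose groups of the genes named by the rule for values by array. At QUE 100 µM, number 3 was high for PSMB6 (10.74, nearest 10.31) and PSMD12 (10.84, nearest 10.30) and low for PSME4 (8.69, nearest 9.05), and number 1 was high for PSMG1 (10.55, nearest 10.11). In the QUE vehicle, number 1 was low for PSMB10 (7.44, nearest 7.83) and number 4 high for PSMB7 (11.81, nearest 11.71). At MMS 500 µM, number 5 was high for PSME1 (9.57, nearest 8.95) and number 3 for PSME4 (9.06, nearest 8.83). In the ETP vehicle, number 1 was high for PSMD3 (8.97, nearest 8.59).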

How the results depend on the processing

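Of 97 changes of members, partners and markers that passed at a highest dose, 2037 alternative fits kept direction and call in 1907, lost the call in 127 and turned the direction in 3. Those 3 came from averaging all kept probe sets at MMS 500 µM, which gave -0.026 for PSMB4, -0.023 for PSMC2 and 0.20 for PSME3. Of the members past the test, 22 of 29 at MMS 500 µM, 16 of 25 at QUE 100 µM and 6 of 14 at ETP 3 µM kept their call in every alternative.

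With the replicate block the counts were 8, 22, 19, 23 and 23 for ETP at 0.03, 0.1, 0.3, 1 and 3 µM, 4 and 25 for MMS at 100 and 300 µM, 5 for QUE at 10 µM, and 17 for QUE 100 µM minus ETP 3 µM. No share of all genes is given for the alternative fits. With number 2 kept they were 1 and 5 for ETP at 0.1 and 0.3 µM and 0 for QUE minus ETP. With only the compared groups in the fit they were 1, 4 and 7 for ETP at 0.1, 0.3 and 1 µM, 1 for QUE at 10 µM and 19 for MMS minus QUE. Without suffixed titles ETP at 0.3 µM gave 5. Quantile normalization gave 1 for MMS at 100 µM and 1 for QUE at 10 µM, where median centring gave 2 and the fits without a trend, with the stricter filter and with averaged probe sets each gave 1. Asking for 1.5-fold as well, which by construction leaves fewer genes, gave 0 for ETP at 0.1, 0.3, 1 and 3 µM and for MMS at 300 µM, 5 for MMS at 500 µM, 3, 3, 2 and 4 for QUE at 30, 60, 80 and 100 µM, and 7, 8 and 4 for MMS minus ETP, MMS minus QUE and QUE minus ETP. The cause of the other shifts was not tested.

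Leaving out 1 replicate at a time gave 0 to 6, 4 to 10, 8 to 14 and 11 to 14 for ETP at 0.1, 0.3, 1 and 3 µM, 11 to 15 and 27 to 30 for MMS at 300 and 500 µM, 0 to 1, 21 to 24, 23 to 26, 17 to 25 and 21 to 25 for QUE at 10, 30, 60, 80 and 100 µM, and 23 to 26, 25 to 33 and 7 to 12 for the differences in the order above. All lower doses stayed at 0. The replicate block moved no other count by over 1.5 times.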

Other observations

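The 5 genes outside the family whose 24 group means, after subtraction of each vehicle, followed the mean of the 43 proteasome genes most closely were TIMM50 (r = 0.988), PAPOLA (0.98), SLC36A4 (0.975), EMG1 (0.971) and ATR (0.969). TIMM50 belongs to the mitochondrial protein import machinery, PAPOLA is a poly(A) polymerase, and ATR is a DNA damage kinase. Their log2 changes at QUE 100 µM were -0.56, -0.66, -1.18, -1.10 and -0.91. The points share vehicle groups, arrays and scaling, so r is a description only.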
